A study of Rattus norvegicus with 8 samples.

Results

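The genes described here carry the Indian hedgehog and PTHrP signal of the growth plate, the cartilage near the ends of long bones where growth in length takes place. All probe sets that the platform annotation assigns to exactly 1 of Ihh, Pth1r, Pthlh and Ptch1 were taken, which gave 3 of the 31042 analysed and 2 of 14217 genes: 1393271_at for Ihh, and 1370259_a_at and 1375789_at for Pth1r. Pthlh and Ptch1 were not analysed here, so the ligand PTHrP and the hedgehog receptor stay outside the measurements. RNA came from the femur growth plate of rats and was read on 8 Affymetrix arrays, 1 at 42 days and 1 at 46 days of age for each of 4 zones, named perichondral, reserve, proliferative and hypertrophic in the labels. Each array held a pool from 3 rats, and the design text counts both ages as replicates, so n = 2 per zone and a p-value reflects how these pools vary, age included. Strain and sex, the way the zones were separated, and whether pools of different zones shared animals are not given in the sources used here. With pooled tissue, fewer cells of a type and less RNA per cell cannot be told apart.

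Indian hedgehog is a secreted protein made by chondrocytes that are leaving the cell cycle and starting to enlarge. It acts through its receptor Patched and the membrane protein Smoothened on neighbouring chondrocytes and on the perichondrium, the sheath around the cartilage. One outcome is the production of PTHrP, the product of Pthlh, by cells near the end of the bone. PTHrP binds the receptor encoded by Pth1r, which works mainly through the stimulatory G protein and cyclic AMP, and this delays the step to hypertrophy. Together the signals form a feedback loop that sets how far from the bone end chondrocytes stop dividing.

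All levels below are quantile-normalized log2(intensity + 16) values unless called deposited intensities, and differences on this scale understate those of dim genes. The median of all probe sets lay at 8.25 on every array after normalization. As a yardstick for background, the 0.95 quantile of 30 genes typical of other organs was 8.94, called the other-organ level here. Cartilage identity held on all arrays: Col2a1, the main cartilage collagen, lay between 15.86 and 17.80. Col10a1, the collagen of hypertrophic cartilage, averaged 16.10 ± 1.18 (SD, n = 2) in hypertrophic against 11.33 ± 0.63 in reserve arrays (limma, adjusted p = 0.0234). Its differences from proliferative arrays (4.32, adjusted p = 0.0766 with limma) and from perichondral arrays (2.38, adjusted p = 0.643) did not pass. Proliferation markers did not single out the proliferative zone. In deposited intensity they summed to 14075 and 10089 there at 42 and 46 days. The sums were 15405 and 36616 in reserve, 28596 and 10446 in hypertrophic and 11772 and 12674 in perichondral arrays. Reserve arrays also had the highest osteoclast sums, 24040 and 12733, and bone sums of 102823 and 84367. The ratio of Gapdh signal at its 3' end over its 5' end, which grows as RNA breaks down, ran from 3.63 to 8.15 over the 8 arrays, with 4.30 and 3.63 in the hypertrophic ones. Marrow genes were uneven: the summed deposited intensity of 11 leukocyte and marrow markers was 42785 to 51763 in reserve arrays and 23408 and 1555 in hypertrophic arrays at 42 and 46 days, while perichondral and proliferative arrays lay between 1364 and 4384.

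Ihh, the hedgehog ligand of the growth plate, was brightest in the hypertrophic zone and dim elsewhere. Its deposited intensity was 502 at 42 days and 121 at 46 days in hypertrophic arrays, and 134 and 24.2 in proliferative arrays. Reserve arrays read 23.3 and 38.4, and perichondral arrays 17.6 and 50.7. Both hypertrophic arrays thus stood above all 4 reserve and perichondral arrays, while the 42-day proliferative array lay above the 46-day hypertrophic one. The plot of the members by zone gives the same values on the log2 scale.

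**Figure D1:**
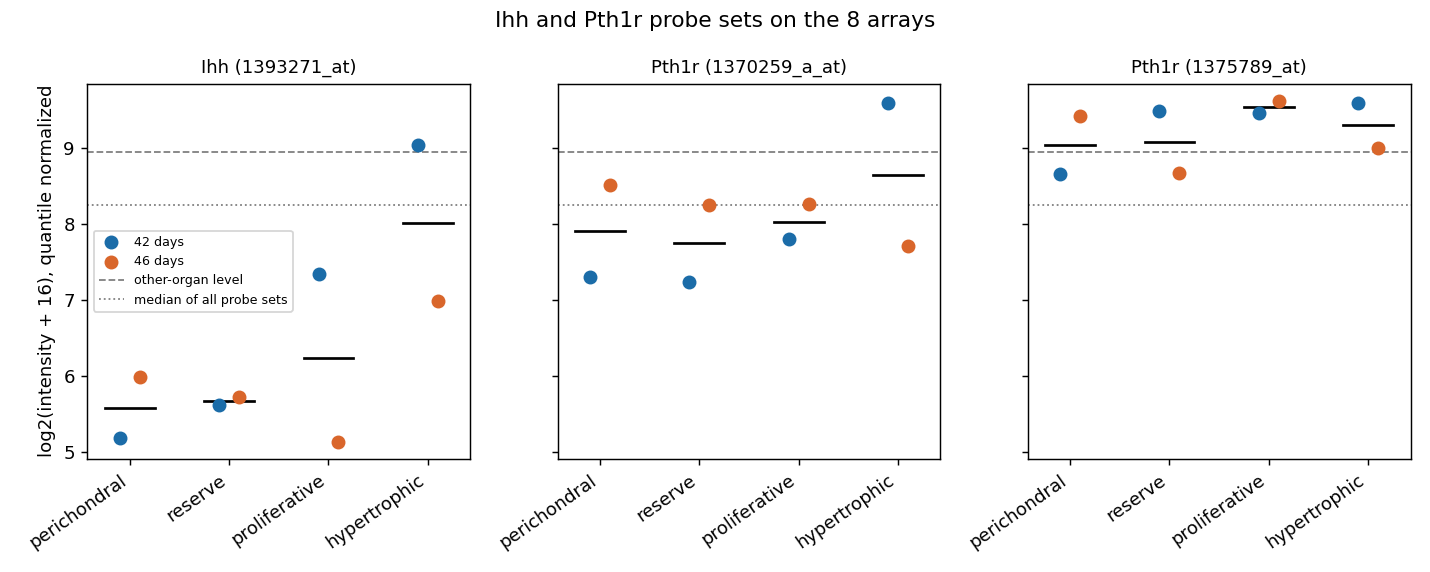
Levels of the Ihh probe set and both Pth1r probe sets on the 8 arrays, as quantile-normalized log2(intensity + 16) by zone, with 1 point per array coloured by age and a bar at each zone mean. The dashed line is the other-organ level of 8.94 and the dotted line the median of 8.25: Ihh crosses the dashed line on 1 array, the 42-day hypertrophic one at 9.03, and Pth1r 1375789_at on 6.

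On the log2 scale Ihh was at 8.01 ± 1.45 (SD, n = 2) in hypertrophic, 6.24 ± 1.56 in proliferative, 5.67 ± 0.07 in reserve and 5.59 ± 0.57 in perichondral arrays. Within an array it ranked at percentile 69.8 of all probe sets in the 42-day hypertrophic array, at 26.5 in the 46-day hypertrophic array, and between 6.32 and 30.8 in the other 6. So 7 of 8 arrays lay below the other-organ level, and the differences rest on dim values.

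Hypertrophic exceeded perichondral arrays by 2.42 (SE 1.16, 95% interval -0.03 to 4.88, 5.36-fold) with an unadjusted p of 0.0526 in limma's test and an adjusted p of 0.812. The difference from reserve arrays was 2.34 (SE 1.16, interval -0.12 to 4.79, adjusted p = 0.635 with limma) and that from proliferative arrays 1.77 (SE 1.16, interval -0.68 to 4.22, adjusted p = 0.929 with limma). Among the other zones, proliferative minus reserve was 0.57 (interval -1.89 to 3.02) and reserve minus perichondral 0.09 (interval -2.37 to 2.54). Both arrays of the hypertrophic zone lay above both of the perichondral zone in 18.2% of all probe sets, and above both of the reserve zone in 21.3%, so the lack of overlap seen for Ihh was common on these arrays. For reserve above perichondral (16.1% of all probe sets), proliferative above reserve (21.7%) and hypertrophic above proliferative arrays (15.8%), 0 of the 3 members were free of overlap. Without the 42-day hypertrophic array the difference from perichondral arrays was 1.40, and without the 46-day one 3.45.

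The tests between zones passed for none of the members. Over 18 comparisons, 3 probe sets in each of 6 pairs of zones, 0 had an adjusted p below 0.05 with limma and 0 had an unadjusted p below 0.05. The shares called among all probe sets were as small: 0% for perichondral against reserve and against proliferative, and 0.029% for perichondral against hypertrophic. They were 0.0226% for reserve against proliferative and against hypertrophic, and 0.0129% for proliferative against hypertrophic. In the order of these pairs, 1164, 1551, 1916, 2372, 2515 and 1714 of the 31042 probe sets had an unadjusted p below 0.05. With 1 probe set per gene the share was 6.55% of all tests, so 0 of 18 does not set the members apart. Limma's F test of any difference among the zones called 0.0387% of all probe sets and 0 of the 3 members, with an adjusted p of 0.863 for Ihh. The intervals in the plot of differences are wide enough to hold both no difference and several-fold ones.

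**Figure D2:**
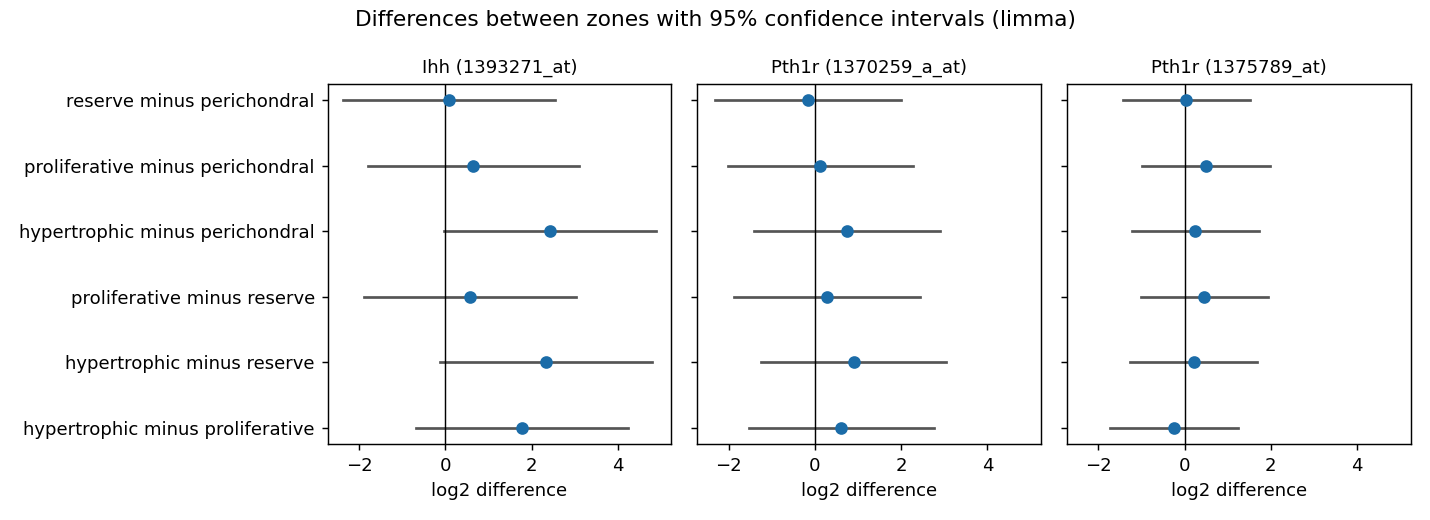
Differences between zones for the 3 probe sets, as log2 differences with 95% confidence intervals from limma, for 6 pairs of zones. All 18 intervals cross 0, and that of Ihh in hypertrophic minus perichondral arrays does so by the least, running from -0.03 to 4.88.

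Col10a1, Mmp13 and Ucma were set beside the Ihh readings by zone. Col10a1 was also highest in hypertrophic arrays, at 16.93 and 15.26. Its perichondral values, 13.66 and 13.78, lay above all reserve and proliferative ones, whereas Ihh in perichondral arrays, at 5.18 and 5.99, overlapped both of those zones. Mmp13, a collagenase of late hypertrophic cartilage and bone, was as bright in reserve arrays (14.75 and 14.73) as in hypertrophic arrays (14.73 and 14.09), and Ihh was dim in reserve arrays. Ucma, a secreted protein of resting cartilage, lay at 9.16 and 9.39 in hypertrophic arrays and between 12.90 and 15.86 in all others. Other hypertrophic markers peaked elsewhere: Ibsp and Spp1 had their highest zone mean in reserve arrays and Panx3 in proliferative arrays. Over the 8 arrays, Pearson's r of Ihh was 0.77 with Col10a1, 0.25 with Mmp13, and -0.73 with Ucma. It was 0.65 with Panx3, 0.51 with Mki67, 0.40 with Ibsp, 0.29 with Spp1, -0.02 with Fgfr3 and -0.37 with Col2a1. These values describe arrays that share zones and ages.

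**Figure D3:**
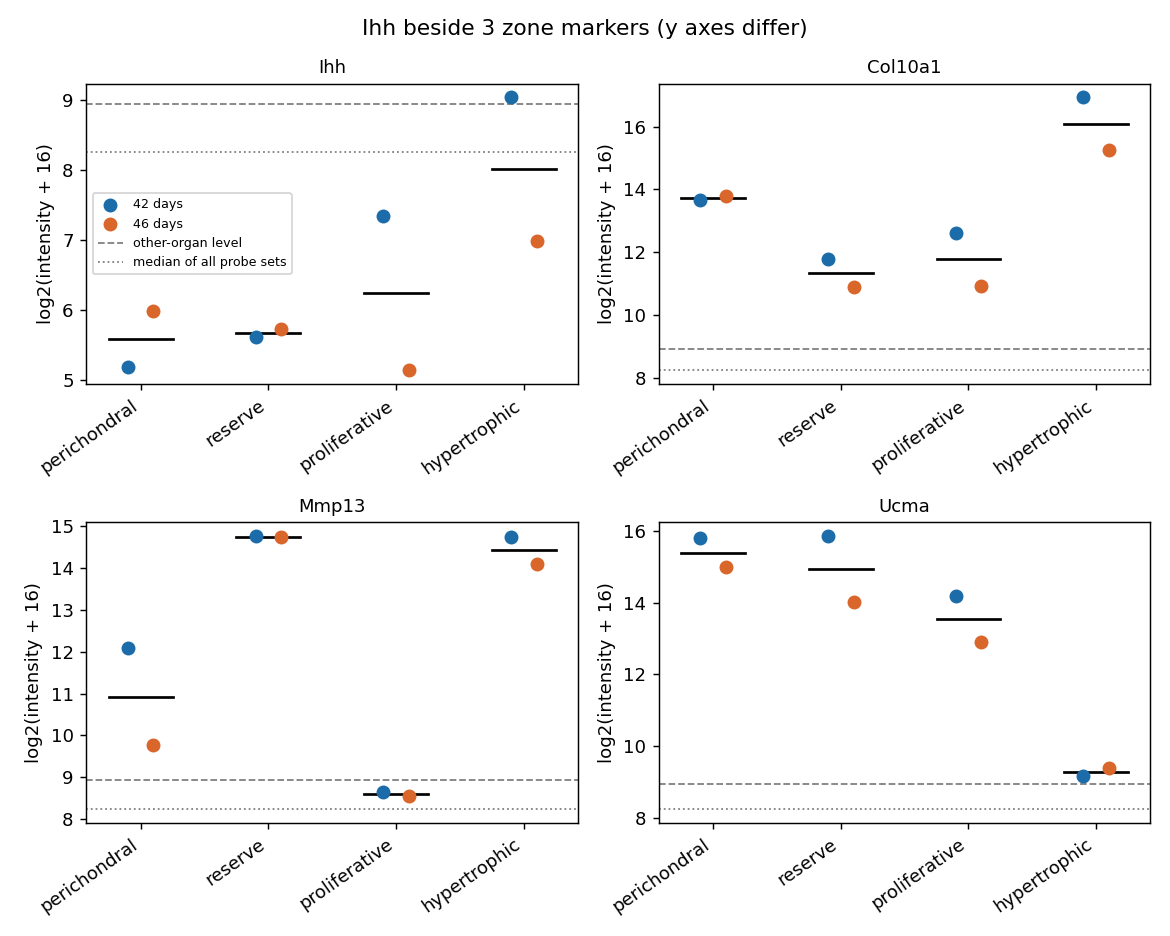
Ihh beside Col10a1, Mmp13 and Ucma on the 8 arrays, as quantile-normalized log2(intensity + 16) by zone, with a bar at each zone mean and a y axis of its own in each panel. Ihh and Col10a1 are both highest in the 42-day hypertrophic array, at 9.03 and 16.93, while Mmp13 is as bright in reserve arrays and Ucma lowest in hypertrophic ones.

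The array with the highest Ihh read higher than its 46-day counterpart for most of the marker lists, those of other cell types included. Chondrocyte markers (8 of 10 higher at 42 days) summed to 287395 and 72897 in deposited intensity at 42 and 46 days, fibrous ones (6 of 11) to 206743 and 10611, and proliferation ones (6 of 9) to 28596 and 10446. Osteoclast markers (7 of 8) summed to 8071 and 6420, and erythroid ones (4 of 6) to 10999 and 2924. Fewer of the resting (3 of 8), endothelial (3 of 8) and muscle markers (1 of 7) were higher at 42 days. Their sums at 42 and 46 days were 1405 and 1992 for resting, 3828 and 3351 for endothelial, and 57776 and 42771 for muscle markers. Of 7 hypertrophic cartilage markers other than the members 6 were higher at 42 than at 46 days, with summed deposited intensities of 266062 and 46295, against 76355 and 52451 in reserve arrays and 5331 to 31893 in perichondral and proliferative arrays. The 11 of 12 listed leukocyte and marrow markers that were measured were all higher in the 42-day than in the 46-day hypertrophic array, and 9 of them were above the other-organ level at 42 days against 1 at 46 days. For 7 of 8 listed osteoblast and bone markers, of which 4 were higher at 42 days, the summed deposited intensity was 171660 at 42 days and 9108 at 46 days in hypertrophic arrays, against 3396 to 102823 in the other zones. No marker of either list was listed at 0 on any array. The lists share genes: Ibsp and Alpl are on the bone and the hypertrophic list, and Col1a1 is on the bone and the fibrous list. Ibsp alone read 62490 in the 42-day hypertrophic array and entered both sums. On the log2 scale the fibrous markers averaged 9.76 at 42 days and 9.12 at 46 days in hypertrophic arrays. Higher sums at 42 days were not particular to this zone. At 42 and 46 days chondrocyte sums were 501378 and 332105 in perichondral, 482139 and 241408 in reserve, and 512046 and 219800 in proliferative arrays. Fibrous, marrow and hypertrophic sums were also higher at 42 days in each zone. Proliferation and erythroid sums were lower at 42 days in perichondral and reserve arrays. The marker counts have no share over all probe sets beside them here. The reserve arrays had more marrow signal than either hypertrophic array, and their Ihh was at 5.62 and 5.72. The part of these cells in the Ihh level was not tested.

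Pth1r, the receptor for PTHrP and parathyroid hormone, was read by 2 probe sets that gave different patterns. With 1375789_at the deposited intensity was 662 at 42 days and 809 at 46 days in proliferative arrays, and 739 and 534 in hypertrophic arrays. Reserve arrays read 674 and 383, and perichondral arrays 363 and 675. The receptor was thus measured in every zone, with no zone standing apart. The log2 level was 9.53 ± 0.11 (SD, n = 2) in proliferative, 9.29 ± 0.41 in hypertrophic, 9.08 ± 0.58 in reserve and 9.04 ± 0.54 in perichondral arrays. It lay above the median of all probe sets on 8 arrays and above the other-organ level on 6.

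The bases before an annotated start of Pth1r are shown because this gene was measured in all zones and has several annotated transcripts. Of the 4 listed genes, the RefSeq promoter table for GRCr8 held Pth1r and Ptch1. The stretch is chr8:119595572-119595821 on the minus strand, printed 5′ to 3′ and ending at the base before the start, with the letters TGACG, the short core of a cyclic AMP response element, in capitals.
Pth1r: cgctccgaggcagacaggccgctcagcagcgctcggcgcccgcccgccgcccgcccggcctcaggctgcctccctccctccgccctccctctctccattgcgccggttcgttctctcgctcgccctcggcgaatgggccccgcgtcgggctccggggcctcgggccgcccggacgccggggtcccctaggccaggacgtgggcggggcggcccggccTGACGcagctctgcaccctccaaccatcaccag
G and C made up 77.6% of these 250 bases, above 98% of the same stretch of 33469 promoters (median 51.2%), and CG occurred 33 times. Searched on both strands, GGGCGG, the GC box bound by Sp factors, occurred 7 times and was present in 30.5% of all these promoters. TGACG occurred 1 time and was present in 18.2%, and it lies within the full element TGACGTCA, which was present in 1.59%. That full element, TGTGGT, a Runx core (14.5%), and GACCACCCA, the Gli consensus (0.338%), had no match in this stretch. These are letter matches only.

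The zone means of 1375789_at spanned 0.50, and no 2 neighbours in that order differed beyond their spread. Its largest difference, proliferative minus perichondral, was 0.50 (SE 0.70, 95% interval -0.98 to 1.97, adjusted p = 0.976 with limma). Both proliferative arrays lay above both perichondral arrays, as in 17.9% of all probe sets. Hypertrophic minus proliferative was -0.24 (interval -1.72 to 1.23). The standard deviation over all 8 arrays, 0.40, was larger than that of 3.33% of all probe sets, so this was one of the steadier readings on the arrays.

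With 1370259_a_at the 42-day hypertrophic array stood highest and the other 7 lay closer together. Deposited intensities were 738 and 215 in hypertrophic arrays at 42 and 46 days, and 196 and 351 in proliferative arrays. They were 108 and 284 in reserve arrays and 137 and 372 in perichondral arrays. The zones overlapped in each pair, and the 46-day hypertrophic array lay below the 46-day arrays of the other 3 zones. On the log2 scale the level was 8.64 ± 1.33 (SD, n = 2) in hypertrophic, 8.03 ± 0.32 in proliferative, 7.90 ± 0.86 in perichondral and 7.74 ± 0.72 in reserve arrays. It was above the other-organ level on 1 array.

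Hypertrophic minus reserve, the largest difference of 1370259_a_at, was 0.90 (SE 1.02, 95% interval -1.25 to 3.05, adjusted p = 0.853 with limma). Without the 42-day hypertrophic array it was -0.04, and without the 46-day one 1.84, so the sign rested on 1 array. Over the 8 arrays both Pth1r probe sets correlated with r = 0.40, and 1370259_a_at correlated with Ihh at r = 0.64. The latter and Ihh were both highest in the 42-day hypertrophic array, which was the highest of the 8 for 14.4% of all probe sets. A probe set name ending in _a_at marks a design that matches several transcripts of a gene, and RefSeq lists 4 transcripts for rat Pth1r. Which of them each probe set reads was not tested.

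Age moved none of the 3 probe sets past the threshold. Ihh averaged 5.96 ± 0.77 (SD, n = 4) at 46 days and 6.79 ± 1.76 at 42 days, a difference of -0.83 (SE 0.82, 95% interval -2.56 to 0.89, adjusted p = 0.825 with limma, zone as covariate). It was lower at 46 days by 2.20 in the proliferative and by 2.05 in the hypertrophic zone, and higher by 0.80 in the perichondral and by 0.11 in the reserve zone. Pth1r differed by -0.12 (interval -1.16 to 0.93) with 1375789_at and by 0.20 (interval -1.34 to 1.74) with 1370259_a_at. Limma called 0% of all probe sets between the ages, with 2616 at an unadjusted p below 0.05.

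The pathways around these genes gave no call either. Of 41 symbols listed for hedgehog signalling 32 were measured, of 36 for PTHrP signalling 31, and of 11 genes known to act upstream of Ihh 9, each gene read by its brightest probe set. Over the 69 genes, members included, 0 passed the threshold in any pair of zones with limma. Of their 414 tests 37, or 8.94%, had an unadjusted p below 0.05, against 6.55% of the tests of all 14217 genes. The median difference between hypertrophic and perichondral arrays was 0.25 higher for the hedgehog list and 0.08 lower for the PTHrP list, and 0.58 higher for the genes upstream of Ihh, against 0.02 lower over all genes. Other pairs gave other values: the upstream median was -0.015 for reserve minus hypertrophic (0.07 over all genes), and the hedgehog median was -0.43 for reserve minus proliferative (0.06 over all genes). The map of the named pathway genes shows their values by array.

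**Figure D4:**
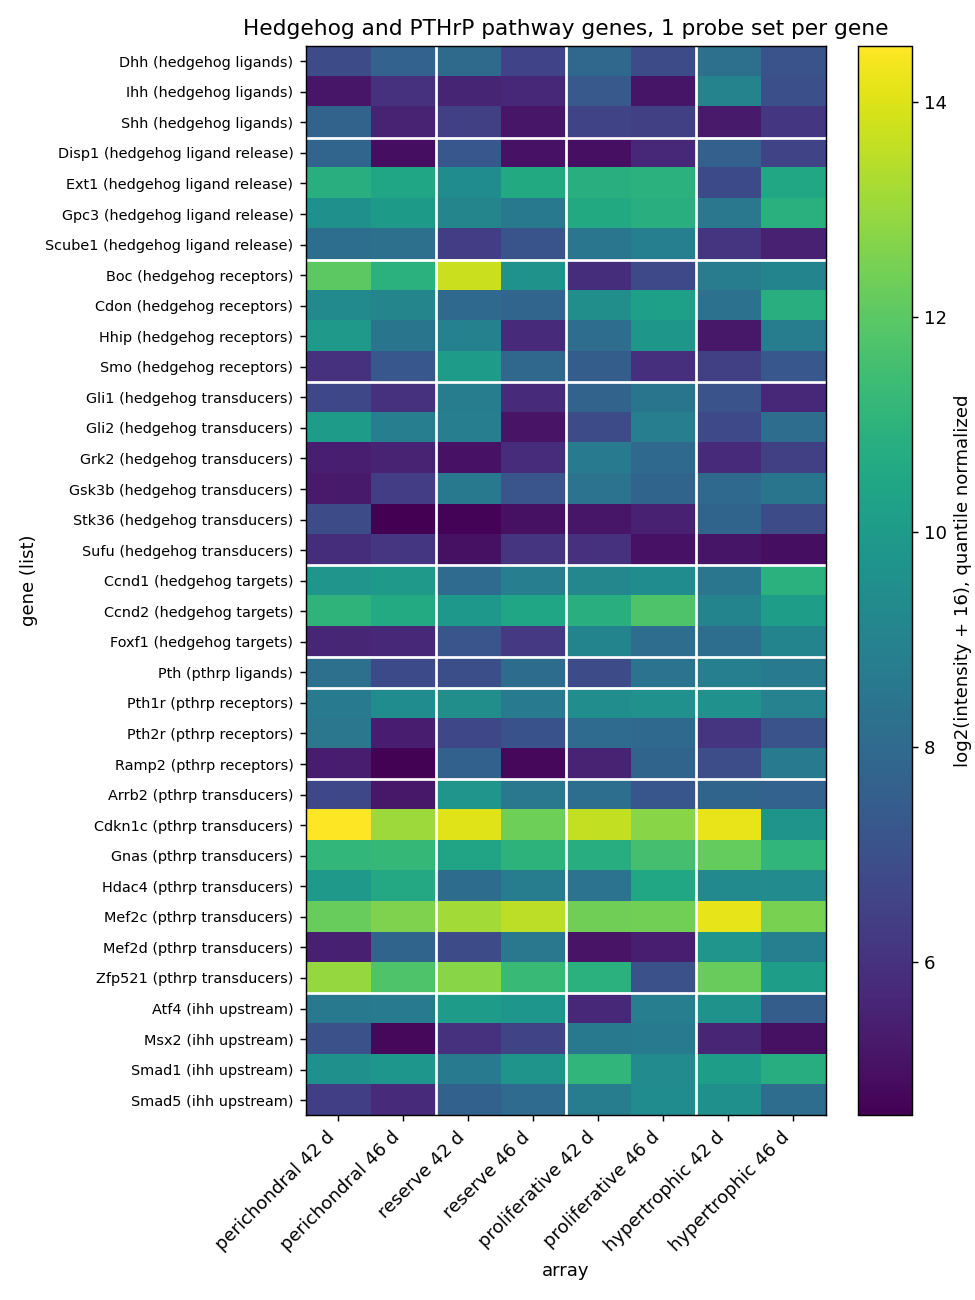
Values of 35 genes from the hedgehog, PTHrP and Ihh upstream lists on the 8 arrays, as quantile-normalized log2(intensity + 16), with 1 probe set per gene, rows grouped by list and columns by zone and age. Boc is bright in perichondral and reserve arrays, from 9.64 to 13.72, and dim in proliferative ones, at 5.89 and 6.77, while Mef2c is bright throughout, from 12.20 to 14.14.

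Hedgehog ligands other than Ihh stayed dim: Shh lay between 5.16 and 7.75 and Dhh, the ligand best known from testis and nerve, between 6.57 and 8.24, all below the other-organ level. Among genes for the release and spread of the ligand, the heparan sulfate polymerase Ext1 ran from 6.79 to 10.91 and was lowest in the 42-day hypertrophic array, where its dimmer probe set read 9.09. The glypican Gpc3 ran from 8.57 to 10.90. Scube1 (at most 8.87) and the transporter-like Disp1 (4.96 to 7.82) were below the other-organ level throughout.

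Boc, a membrane co-receptor that helps the ligand bind Patched, had the largest spread of zone means among these genes. It was at 12.02 and 10.92 in perichondral and 13.72 and 9.64 in reserve arrays at 42 and 46 days, against 5.89 and 6.77 in proliferative and 8.80 and 9.05 in hypertrophic arrays. Proliferative arrays lay below all others. The difference between reserve and proliferative arrays was 5.35 (SE 0.97, adjusted p = 0.0713 with limma) and that between perichondral and proliferative arrays 5.14 (SE 0.97, adjusted p = 0.395). With age as a replicate block both passed, at adjusted p = 0.0116 and 0.0405 with limma. Without the 46-day reserve array, which leaves 1 reserve array at 13.72, the first difference was 7.39. Without the 46-day hypertrophic array it stayed at 5.35.

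None of the other receptors and readouts passed the threshold. Cdon, a co-receptor related to Boc, had its lowest zone mean in reserve arrays (7.91 ± 0.12, SD, n = 2) and its highest in proliferative arrays (9.82 ± 0.50). Smo, which passes the signal into the cell, was above the other-organ level on 1 array, at 10.04 in the 42-day reserve array, and a second Smo probe set read 5.53 there. Hhip, a decoy receptor and direct target of the pathway, had its zone means between 7.004 ± 2.54 (SD, n = 2) in hypertrophic and 9.20 ± 1.06 in perichondral arrays, and ran from 5.21 to 9.94. Gli1, the transcription factor most used as a readout of hedgehog activity, lay between 5.69 and 8.79, below the other-organ level on all arrays.

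Gli2, the main activating transcription factor, was above that level on 1 array, the 42-day perichondral one at 10.02. The inhibitor Sufu did not exceed 6.13. Stk36 (4.57 to 7.76), the kinase Gsk3b (5.28 to 8.57) and the receptor kinase Grk2 (5.05 to 8.63) were also below the other-organ level on all arrays. Among targets, the cell cycle regulator Ccnd2 averaged 11.31 ± 0.65 (SD, n = 2) in proliferative and 9.61 ± 0.76 in hypertrophic arrays. Ccnd1 ran from 8.04 to 10.92 with its brightest probe set, and Foxf1 from 5.64 to 9.07.

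On the PTHrP side 27 signal transducers were measured, of which 8 lay above the other-organ level on all 8 arrays and 6 on none. Gnas, which encodes the stimulatory G protein, lay between 10.39 and 12.16 with its brightest probe set. Its probe set 1369897_s_at ran from 9.68 to 11.35 in perichondral and reserve arrays and from 8.26 to 9.27 in the other zones, so the Gnas probe sets disagreed. Mef2c, a factor that drives hypertrophy, lay between 12.20 and 14.14 and was highest in the 42-day hypertrophic array with its brightest probe set, while the other ran from 10.41 to 11.55 and was highest in the 46-day proliferative array. Hdac4, which restrains Mef2 factors, lay at 8.10 and 8.78 in reserve arrays and at 9.90 and 10.59 in perichondral arrays. Cdkn1c, a cell cycle inhibitor, ran from 9.73 in the 46-day hypertrophic array to 14.52 in the 42-day perichondral array.

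Zfp521, a nuclear factor that acts downstream of PTHrP, had its highest mean in perichondral arrays, 12.38 ± 0.82 (SD, n = 2), followed by 12.01 ± 1.02 in reserve, 11.17 ± 1.44 in hypertrophic and 8.97 ± 2.75 in proliferative arrays. Perichondral minus proliferative was 3.40 (SE 0.97, adjusted p = 0.963 with limma), and with the replicate block it passed at 0.0445, as did reserve minus proliferative at 0.0385. Its low mean rests on the 46-day proliferative array at 7.03. Mef2d was above the other-organ level on 1 array, at 9.77 in the 42-day hypertrophic array, where its dimmer probe set read 6.52. Arrb2, which uncouples receptors from G proteins, was above it at 9.77 in the 42-day reserve array alone. Pth (6.80 to 8.86), Pth2r (5.33 to 8.52) and Ramp2 (4.61 to 8.63) stayed below that level on all arrays.

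Upstream of Ihh, the BMP signal transducer Smad1 lay at 10.44 ± 0.47 (SD, n = 2) in hypertrophic and 9.16 ± 0.76 in reserve arrays. Smad5 ran from 5.74 to 9.58 with its brightest probe set, and its other probe sets did not share the order of zones. Atf4, a factor that binds the Ihh promoter in chondrocytes, averaged 9.92 ± 0.17 in reserve and 7.24 ± 2.23 in proliferative arrays. Msx2 was below the other-organ level throughout. Its brightest probe set read 8.58 and 8.73 in proliferative arrays and at most 7.04 elsewhere, while the other two read up to 7.68 and were not highest in both proliferative arrays. None of these differences passed the threshold.

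The genes whose values ran most like each probe set were taken by Pearson's r over the 8 arrays, among 8269 probe sets of other genes with a mean above the median for Ihh and 8268 for Pth1r. For Ihh they were Mau2 (r = 0.96), Pck1 (0.94) and Cdk13 (0.93), all highest in the 42-day hypertrophic array, as Ihh was. For Pth1r 1370259_a_at they were Trdn (0.96), Kiaa1958 (0.95) and Etv4 (0.95), which peaked on that array too. For Pth1r 1375789_at they were Mia2 (0.96), Tcfl5 (0.96) and Vwa5b2 (0.95). With this many candidates and 8 arrays, such values describe likeness on these arrays alone.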

How the data were processed

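The deposited values are linear array intensities, 1 per probe set. MAS5, GCOS and RMA are listed in the submitters' processing notes, with neither role nor version, and no genome build is given. Per the labels' protocols, RNA was prepared with Qiagen RNeasy and labelled with Nugen Ovation. The mean intensity trimmed by a share of 0.02 was 500.08 to 500.16 on all arrays. After 57 control probe sets were left out, 31042 were analysed as log2(intensity + 16). Array medians differed by 0.59, over the limit of 0.1, so arrays were quantile normalized (limma 3.58.1, R 4.3.3). Symbols came from the platform annotation (20826 probe sets with 1 symbol, 436 with several, 9780 with none), with 20758 matched to RefSeq by gene identifier.

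Limma fitted zone means over the 8 arrays (variance trend, 4 residual degrees of freedom), and p-values were adjusted by Benjamini-Hochberg over the 31042 probe sets, with a threshold of 0.05. Age was tested with zone as covariate. The test was tried on simulated data, where it missed nearly all changes but the largest simulated. Alternatives varied the normalization, pseudocount, low-value filter, variance trend, age as a block and the arrays included. The number of arrays limits the precision. Pathway genes named were a set list, any past the threshold, and up to 4 per list by range of zone means. Of the set list, some genes, Gli3, Runx2 and Sox9 among them, were not analysed here. Members and lists were chosen with earlier results of these data known.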

Additional observations from a re-analysis of the deposited data

Results flagged for a closer look

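Pth1r 1375789_at in the 42-day perichondral array, at 8.65, stood apart from the other 3 arrays of that age, which lay between 9.45 and 9.58. Chance gives such a gap in about 1 of 20 groups, and 6 groups were examined. Pth1r 1370259_a_at in the hypertrophic zone lay above all other zones at 42 days, by 2.14 on average, and below all of them at 46 days, with a mean difference of -0.64. The difference between the ages was not tested, since each zone has 1 array per age.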

How the results depend on the processing

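No member passed the threshold under any alternative: over 359 alternative values of 24 tested results the lowest adjusted p was 0.546, and 27 turned sign, 1 of them with all arrays kept (Ihh, perichondral minus reserve, 0.035 with values as deposited). Ihh in perichondral minus hypertrophic arrays ran from -2.90 (pseudocount 1) to -1.70 (pseudocount 64). Ihh and Pth1r 1370259_a_at could not be fitted when only probe sets above the median were kept. With 1 array left out, where the lone array of a zone is assumed to vary like the others, the ranges that crossed 0 were as follows. Ihh ran from -0.49 to 0.32 for perichondral minus reserve, from -1.75 to 0.45 for perichondral minus proliferative and from -1.67 to 0.53 for reserve minus proliferative. For Pth1r 1370259_a_at the range was -0.45 to 0.77 for perichondral minus reserve, -0.73 to 0.48 for perichondral minus proliferative, -1.68 to 0.20 for perichondral minus hypertrophic, from -0.79 to 0.22 and from -1.84 to 0.042 for reserve minus proliferative and hypertrophic, from -1.55 to 0.33 for proliferative minus hypertrophic, and from -0.14 to 0.89 for age. Pth1r 1375789_at ran from -0.45 to 0.37 and from -0.64 to 0.13 for perichondral minus reserve and hypertrophic, from -0.62 to 0.19 for reserve minus hypertrophic, from -0.050 to 0.54 for proliferative minus hypertrophic, and from -0.41 to 0.11 for age.

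Counts over all probe sets moved more, and the cause was not tested. In the order perichondral against reserve, proliferative and hypertrophic, reserve against proliferative and hypertrophic, and proliferative against hypertrophic, the counts called were 0, 0, 9, 7, 7 and 4. With age as a replicate block they were 3, 13, 55, 60, 38 and 11, with 96 by the F test against 12, and 2 pathway genes, Boc and Zfp521, passed. The 46 minus 42 day differences of the zones correlated at 0.0225 to 0.0806 across probe sets, all under 0.1, so age was not taken to pair the arrays. With the pair's 4 arrays alone, 9 passed for the first pair, 27 for the fourth, 0 for the fifth and 1 for the last. Values as deposited gave 14 for the fourth pair and 45 by age, pseudocount 64 gave 16 and 5, and pseudocount 1 gave 2 for the last. Median-centred arrays gave 1 for the third and the fifth, 0 for the last, 5 by the F test and 140 by age. The filter gave 2 for the third and the fifth, 3 for the fourth, 0 for the last and 4 by the F test. Without a variance trend all were 0. With 1 array left out the counts ran from 0 to 1, 6, 50, 47, 167 and 13 in that order, from 2 to 80 by the F test, from 0 to 5 by age, and from 0 to 1 for pathway genes.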
